A study of Sus scrofa with 6 samples.

Results

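Blood vessels of the cerebral cortex were followed through 33 marker genes, 21 of endothelial cells and 12 of mural cells, out of 28965 genes in the deposited tables. The genes were chosen by name from a list of 37. Of these names ABCB1, PODXL, EGFL7 and NDUFA4L2X matched no row and were not analysed here. ANGPT2, a ligand that endothelial cells store, was counted with the endothelial genes. The study measured polyadenylated RNA from the cortex of male pigs aged 140 days, 3 of them wildtype and 3 carrying a maternal UBE3A deletion. UBE3A is a ubiquitin ligase that neurons read almost entirely from the maternal chromosome, and its loss there causes Angelman syndrome in people. The labels do not say how much of UBE3A is missing. No treatment or other allele is named for either group, and each library came from a separate animal.

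Endothelial cells line every vessel. In the brain they form the blood-brain barrier, with tight junctions between cells and transporters that choose what passes. Mural cells wrap the endothelium: pericytes lie along capillaries, and contractile smooth muscle cells form the wall of arteries and arterioles. Endothelial PDGFB holds pericytes through their receptor PDGFRB, while angiopoietin, VEGF and Notch signals keep vessels stable. In a block of cortex most vessels are capillaries, and the larger arteries run in the pia on its surface.

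Libraries held 19796762 to 28126173 reads assigned to exons. UBE3A matched every label, at 87.9, 93.7 and 91.5 against 11.7, 7.799 and 7.73 CPM, so the deletion group kept 9.96% of the wildtype mean. Values below are counts per 1e6 reads (CPM) after TMM scaling unless TPM, which also divides by gene length, is named, and 3 values in a row are replicates 1 to 3. The cortical markers SNAP25 and SLC17A7 were high in all libraries, at 3548, 2919.6 and 4026 against 3209.5, 4724 and 4359 CPM and 1185, 1245 and 964 against 915, 1086 and 981 CPM. Deletion replicate 2 stood apart for smooth muscle genes. The contractile fold changes, the mural median and the medians of the further vessel lists are given with and without it. Wildtype replicate 2 was the lowest library for 11 of 21 endothelial and 9 of 12 mural genes, against 20.7% of all 14458 genes tested.

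The cortical vessels showed no genotype difference that passed the test in any of the 33 genes. All 33 had enough reads for edgeR's quasi-likelihood test over all genes, and 0 passed a Benjamini-Hochberg adjusted p of 0.05, where the whole table had 0.00692% passing (UBE3A alone). With DESeq2 0 members passed as well, against 0.131% of all genes. At an unadjusted p under 0.05 there was 1 member, SOX17, which is 1 of 21 endothelial and 0 of 12 mural genes, beside 7.23% of all genes (3.33% higher and 3.89% lower in the deletion group). Among endothelial genes 13 of 21 had positive log2 fold changes and a median of 0.025; among mural genes these were 11 of 12 and 0.24, where all genes had a median of 0.0028 and 49.5% were negative. Without deletion replicate 2 the mural median became -0.12 and 7 of 12 were negative, beside 50.3% of all genes, with 0 members and 0.00681% of genes passing. The endothelial split turned without wildtype replicate 2, to 16 of 21 negative with a median of -0.071 (all genes 0.0020). It also turned with limma-voom on all 6 libraries, to 14 of 21 negative and -0.043 (all genes 0.0055). Without deletion replicate 1 it was 12 of 21 negative and -0.0093 (all genes 0.0017). In whole tissue, fewer cells of a type and less RNA per cell cannot be told apart.

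Per gene length the vessel genes spanned a wide range of levels. The most abundant was RAMP2, which helps the adrenomedullin receptor reach the endothelial surface, at 85.5 ± 8.09 TPM (mean ± SD over the 6 libraries). It was followed by the tight junction protein CLDN5 at 70.1 ± 6.88 TPM and by RGS5, a brake on G-protein signalling in pericytes, at 69.02 ± 7.81 TPM. These 3 had overlapping ranges, and 75.7 to 99.3 TPM was the range of RAMP2. MFSD2A, which carries lysophosphatidylcholine with docosahexaenoic acid across the barrier, had 47.6 ± 8.71 TPM. The smooth muscle genes TAGLN and ACTA2 came next on average, with 39.3 ± 22.2 and 34.9 ± 26.5 TPM, with larger SDs than every endothelial gene. In the middle stood TIE1 (28.2 ± 3.36 TPM), PDGFRB (18.6 ± 2.64 TPM), CDH5 (12.9 ± 1.64 TPM) and NOTCH3 (8.81 ± 1.195 TPM). Lower in the order stood the receptor TEK and the transcription factors SOX17 and ERG, with TEK at 3.65 ± 0.611, SOX17 at 4.33 ± 0.538 and ERG at 4.81 ± 0.887 TPM. The pericyte genes ANPEP, VTN and ABCC9 closed the order at 2.05 ± 0.496, 1.47 ± 0.327 and 0.383 ± 0.142 TPM. Neighbours in the order had overlapping ranges over the 6 libraries except VTN and ABCC9. Both classes were above 0 in every library.

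**Figure D1:**
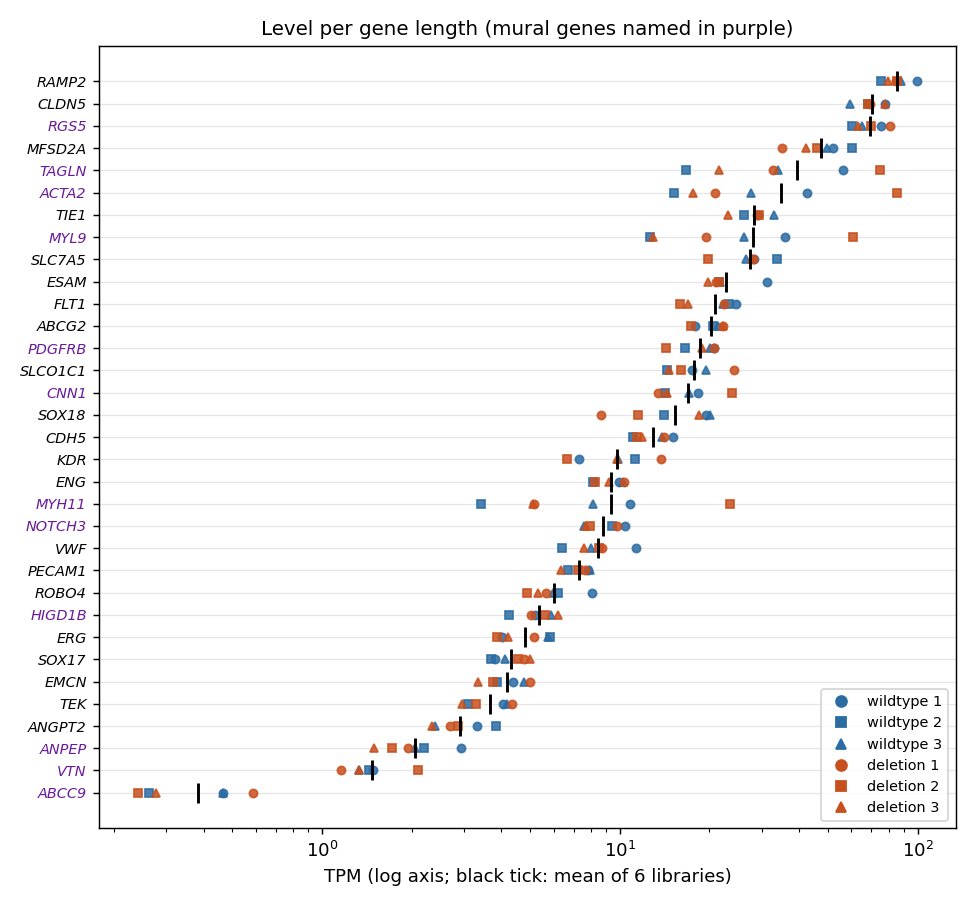
TPM of each of the 33 vessel genes on a log axis, ordered by the mean of the 6 libraries (black tick), with wildtype in blue, deletion in orange and a marker shape for each replicate. RAMP2, CLDN5 and RGS5 lead and ABCC9 is lowest, while TAGLN, ACTA2, MYL9 and MYH11 are spread widest, with deletion replicate 2 at the high end and wildtype replicate 2 at the low end.

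None of the 5 junction and surface genes of the endothelium passed the test, and their groups overlapped. CLDN5, the main claudin of the blood-brain barrier, measured 73.1, 59.5 and 56.3 CPM in the wildtype animals against 64.3, 72.6 and 80.5 CPM in the deletion animals. Wildtype replicates 2 and 3 were below every deletion library, but wildtype replicate 1 was above deletion replicates 1 and 2, so the groups overlapped (log2 fold change 0.20, SE 0.13, edgeR adjusted p = 0.713). CDH5, the cadherin of endothelial adherens junctions, stood at 24.02, 16.4 and 22.3 against 22.3, 20.6 and 20.95 CPM, and its lowest library was wildtype replicate 2. PECAM1, an adhesion molecule of endothelial junctions, stood at 23.7, 18.96 and 24.3 against 23.03, 24.8 and 21.3 CPM, with log2 fold changes of 0.047 for PECAM1 and 0.029 for CDH5. ESAM, another adhesion molecule of these junctions, measured 22.2, 14.2 and 15.6 against 14.9, 17.3 and 15.6 CPM, and wildtype replicate 1 was its highest library. The surface sialomucin EMCN measured 8.68, 7.12 and 9.58 against 9.87, 8.44 and 7.31 CPM. For ESAM and EMCN the log2 fold changes were -0.12 and 0.019, with 95% intervals of -0.53 to 0.29 and -0.38 to 0.42. Of these 5 genes CLDN5 had the narrowest interval, -0.094 to 0.50.

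Receptors for vessel growth signals also overlapped between the groups. FLT1, the VEGF receptor that acts largely as a decoy, measured 63.1, 55.6 and 57.4 CPM in the wildtype animals against 56.96, 46.2 and 47.9 CPM in the deletion animals. Deletion replicates 2 and 3 were below all wildtype libraries and deletion replicate 1 was among them (log2 fold change -0.22, SE 0.11, edgeR adjusted p = 0.685, range over the 13 alternative settings 0.232 to 0.968). KDR, the main signalling VEGF receptor, ranged from 16.98 CPM in wildtype replicate 1 and 17.4 CPM in deletion replicate 2 to 31.7 CPM in deletion replicate 1. The groups overlapped (log2 fold change 0.21, 95% interval -0.32 to 0.74). The angiopoietin receptor TEK stood at 10.9, 7.71 and 11.3 against 11.6, 9.96 and 8.77 CPM and its partner TIE1 at 45.4, 37.7 and 51.8 against 44.6, 51.5 and 39.6 CPM. Their log2 fold changes of 0.025 and 0.0091 had intervals of -0.40 to 0.45 and -0.32 to 0.34. ANGPT2, a ligand of TEK that loosens vessels, had 8.17, 8.81 and 5.97 against 6.58, 7.98 and 6.37 CPM (log2 fold change -0.14).

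ENG, a co-receptor for TGF-beta family ligands in endothelium, measured 26.1, 19.7 and 27.04 against 26.8, 24.5 and 26.4 CPM. RAMP2 measured 47.2, 33.3 and 42.2 against 39.9, 46.02 and 41.9 CPM, with wildtype replicate 1 highest and wildtype replicate 2 lowest. ROBO4, a guidance receptor that stabilises endothelium, measured 19.4, 13.8 and 14.4 against 13.5, 13.3 and 14.1 CPM. Only wildtype replicate 1 stood clear of the other 5 libraries for ROBO4, and its log2 fold change was -0.22 (SE 0.15). ESAM and ROBO4 lie near each other, with 2 protein-coding genes between them by RefSeq's gene table for Sscrofa11.1, and both were highest in that library. VWF, the clotting protein of larger vessels, measured 51.4, 26.8 and 36.6 against 39.2, 43.6 and 37.9 CPM. Wildtype replicates 1 and 2 were its highest and lowest libraries, so the deletion libraries lay inside the wildtype range (log2 fold change 0.075, 95% interval -0.43 to 0.57).

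Among the 3 endothelial transcription factors, SOX17 was the single member whose groups were apart upward. SOX17, which specifies arterial endothelium, measured 6.32, 5.68 and 6.92 CPM in the wildtype animals against 7.89, 8.53 and 9.19 CPM in the deletion animals. Every deletion library was above every wildtype library, with means of 6.31 ± 0.623 against 8.54 ± 0.649 CPM (SD, n = 3 each). Its log2 fold change came to 0.44 (SE 0.15, 95% interval 0.089 to 0.79), with an unadjusted p of 0.02 and an edgeR adjusted p of 0.683, 0.229 to 0.968 over the alternatives. Upward separation occurred in 6.88% of all genes tested, against 1 of 21 endothelial genes here. SOX18, a relative of SOX17 in the same subgroup, stood at 13.1, 8.81 and 13.6 against 5.77, 8.76 and 13.7 CPM. Deletion replicate 1 was its lowest library and deletion replicate 3 its highest, which left an interval of -1.07 to 0.40, the one endothelial interval that reached past a 2-fold change. ERG, an ETS factor that maintains endothelial identity, held 3.75, 5.06 and 5.42 against 4.78, 4.08 and 4.36 CPM.

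The 4 barrier transporters overlapped between genotypes, with 2 log2 fold changes positive and 2 negative. MFSD2A measured 45.4, 48.8 and 43.6 CPM in the wildtype animals against 30.2, 45.3 and 40.7 CPM in the deletion animals. Deletion replicate 1 was well below the rest and the other deletion libraries lay near wildtype (log2 fold change -0.25, SE 0.15, edgeR adjusted p = 0.706). ABCG2, an efflux pump for drugs, measured 39.1, 41.7 and 46.9 CPM in the wildtype animals against 48.1, 42.9 and 53.4 CPM in the deletion animals, with overlapping groups (log2 fold change 0.18, SE 0.12, edgeR adjusted p = 0.719). SLCO1C1, which imports thyroid hormone and is also made by astrocytes, stood at 47.4, 36.1 and 53.2 against 65.1, 49.1 and 43.7 CPM. Its highest library was deletion replicate 1, the lowest for MFSD2A. SLC7A5, the large neutral amino acid transporter, which other cortical cells also make, stood at 86.00, 95.6 and 81.4 against 84.5, 68.1 and 93.9 CPM. SLCO1C1 and SLC7A5 had log2 fold changes of 0.21 and -0.094. Summed over the 4 transporters, levels were 218, 222 and 225 CPM in the wildtype animals against 228, 205 and 232 CPM in the deletion animals.

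**Figure D2:**
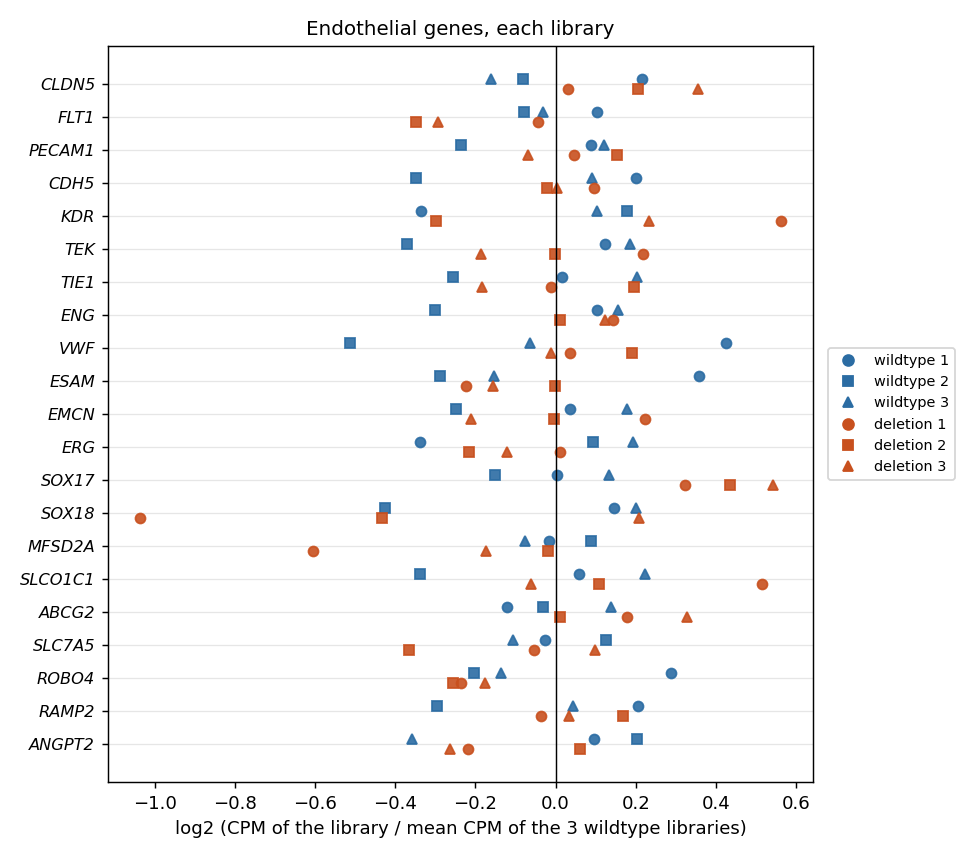
Each row is an endothelial gene and each point a library, placed at the log2 ratio of its CPM to the mean of the 3 wildtype libraries (blue: wildtype, orange: deletion, shape: replicate). Points of both genotypes mix around 0 in 20 rows, and SOX17 is the row in which the 3 deletion libraries, 7.89 to 9.19 CPM, all lie to the right.

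Summed over the 21 genes, the endothelial level was 682, 586 and 649 CPM in the wildtype animals against 652, 631 and 653 CPM in the deletion animals. The highest library held 1.16 times the lowest, and the means were 639 ± 48.7 against 645 ± 12.2 CPM (SD, n = 3 each). For 20 of the 21 genes the 95% interval of the difference lay within a 2-fold change either way, and for 16 within 1.5-fold. Those outside 1.5-fold were KDR, SOX17, SOX18, MFSD2A and SLCO1C1. An adjusted p above the threshold does not show equal levels, and with 3 animals a group differences up to the bounds of these intervals remain possible.

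None of the 7 mural genes outside the contractile group passed the test. RGS5 measured 155, 115 and 135 CPM in the wildtype animals against 166, 163 and 144 CPM in the deletion animals. Deletion replicates 1 and 2 were the highest libraries, and deletion replicate 3 lay below wildtype replicate 1 (log2 fold change 0.22, SE 0.12, edgeR adjusted p = 0.7). PDGFRB, the receptor through which pericytes are recruited, stood at 49.01, 36.03 and 47.9 against 48.5, 38.1 and 49.2 CPM, and NOTCH3, a Notch receptor of smooth muscle and pericytes, at 32.2, 27.2 and 23.8 against 30.04, 27.9 and 26.5 CPM. Both were near level between genotypes, with log2 fold changes of 0.033 (95% interval -0.32 to 0.38) and 0.021 (-0.28 to 0.33). ANPEP, an aminopeptidase on pericytes, measured 4.42, 3.06 and 3.11 CPM in the wildtype animals against 2.901, 2.94 and 2.48 CPM in the deletion animals. Each deletion library was below each wildtype library, though 3.06 and 2.94 CPM were close (log2 fold change -0.35, SE 0.24, edgeR adjusted p = 0.722). Downward separation was found in 7% of all genes and in 1 of 12 mural genes. ANPEP rested on 53 to 105 reads per library.

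HIGD1B, a small mitochondrial protein enriched in pericytes, measured 1.81, 1.38 and 2.06 CPM in the wildtype animals against 1.73, 2.202 and 2.39 CPM in the deletion animals. It was highest in deletion replicates 2 and 3 and overlapped in deletion replicate 1 (log2 fold change 0.27, SE 0.28, edgeR adjusted p = 0.802). VTN, the matrix protein vitronectin that brain pericytes secrete, stood at 1.601, 1.45 and 1.45 against 1.24, 2.57 and 1.59 CPM. Deletion replicate 2 was highest and deletion replicate 1 lowest for VTN, and its log2 fold change went from 0.26 to -0.089 without deletion replicate 2. ABCC9, the sulfonylurea receptor subunit of the pericyte potassium channel, stood at 1.64, 0.860 and 1.66 against 2.05, 0.963 and 1.08 CPM (log2 fold change 0.0032, 95% interval -0.92 to 0.92). The 3 genes had few reads, 40 to 51 for HIGD1B, 29 to 56 for VTN and 21 to 58 for ABCC9. Counting alone gives such totals a coefficient of variation of 14.9%, 16.01% and 17.4%.

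Among the contractile genes of vascular smooth muscle, ACTA2, MYH11, MYL9 and TAGLN varied more within each genotype than every other vessel gene, while CNN1 varied less than ABCC9 and SOX18. Deletion replicate 2 was the highest library for each of the 5, as it was for 17.8% of all genes. ACTA2, the smooth muscle actin, measured 33.8, 11.2 and 22.03 CPM in the wildtype animals against 16.4, 76.4 and 15.5 CPM in the deletion animals. MYH11, the smooth muscle myosin heavy chain, measured 34.8, 10.2 and 26.5 CPM in the wildtype animals against 16.5, 85.7 and 18.2 CPM in the deletion animals. Deletion replicate 2 held 4.65 times the median of the other 5 libraries for ACTA2 and 4.71 times for MYH11. TAGLN, an actin-binding protein of smooth muscle, measured 42.8, 11.8 and 25.99 CPM in the wildtype animals against 24.7, 64.4 and 18.1 CPM in the deletion animals. The regulatory light chain MYL9 stood at 18.2, 5.92 and 13.3 against 9.76, 34.7 and 7.22 CPM, and the calponin CNN1 at 20.7, 14.8 and 19.4 against 15.1, 30.5 and 17.9 CPM. Ratios of deletion replicate 2 to the median of the rest were 2.605 for TAGLN, 3.56 for MYL9 and 1.701 for CNN1. In each gene wildtype replicate 1 was second and wildtype replicate 2 last. Deletion replicate 2 and wildtype replicate 1 were the 2 highest, in either order, with wildtype replicate 2 lowest in 2.05% of all genes. That order was taken from the contractile genes after their values were seen.

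No contractile gene passed the test, and the direction rested on that library. The 5 log2 fold changes ran from 0.21 to 0.75, all positive, with intervals as wide as -0.93 to 2.43 for MYH11 and -0.92 to 2.30 for ACTA2 (edgeR adjusted p = 0.79 and 0.799, 0.492 to 0.968 and 0.517 to 0.968 over the alternatives). Without deletion replicate 2 all 5 were negative, at -0.48 for ACTA2, -0.32 for TAGLN, -0.46 for MYH11, -0.54 for MYL9 and -0.15 for CNN1. The other deletion libraries lay inside the wildtype range for ACTA2, TAGLN, MYH11, MYL9 and CNN1. In 4 of the 5 genes, all but CNN1, deletion replicate 2 was at least 1.5 times every other library, which 0.885% of all tested genes did. That ratio was chosen after the values were seen. The coefficient of variation within wildtype had a median of 50.6% for the contractile genes, against 16.2% for the other 7 mural genes, 17.2% for endothelial genes and 11.97% for all genes. Within the deletion group these were 88.2%, 13.7%, 11.2% and 11.9%.

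**Figure D3:**
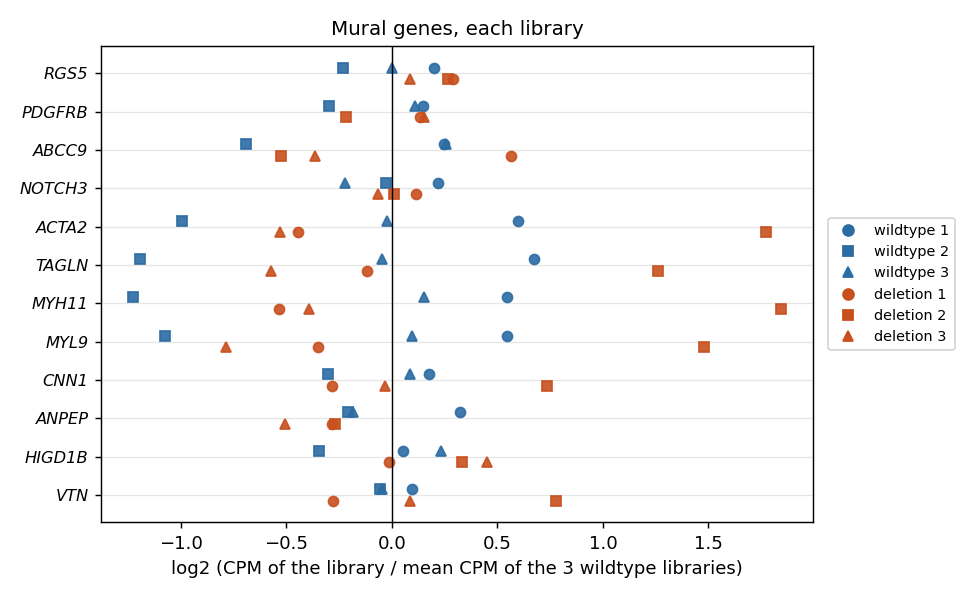
Each row is a mural gene and each point a library, at the log2 ratio of its CPM to the wildtype mean (blue: wildtype, orange: deletion, shape: replicate). In ACTA2, TAGLN, MYH11, MYL9 and CNN1 the orange square, deletion replicate 2, is the rightmost point and the blue square, wildtype replicate 2, the leftmost, with CNN1 the least spread of these 5.

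The summed level of the contractile genes varied more across libraries than that of the other vessel genes. Their summed level was 150.3, 53.96 and 107 CPM in the wildtype animals against 82.5, 292 and 76.9 CPM in the deletion animals. That is 5.41 times from lowest to highest library, against 1.36 times for the other 7 mural genes and 1.16 times for the endothelial sum. Relative to the endothelial sum, contractile transcripts stood at 0.221, 0.0921 and 0.165 in wildtype and 0.127, 0.462 and 0.118 in deletion replicates 1 to 3. The same ratio for the other mural genes stayed between 0.317 and 0.387. Their sum, 246, 185 and 215 CPM in the wildtype animals against 252, 237 and 227 CPM in the deletion animals, was lowest in wildtype replicate 2. RGS5 makes up most of that sum.

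As sums, markers of red blood cells, fibroblasts and perivascular macrophages were highest in the same 2 libraries as the contractile genes. HBB, the beta-globin of red blood cells, measured 42.1, 1.45 and 5.82 CPM in the wildtype animals against 10.8, 54.3 and 3.14 CPM in the deletion animals. Deletion replicate 2 was highest, wildtype replicate 1 second and wildtype replicate 2 lowest, as in the contractile genes. Of the red blood cell list 5 of 7 markers were found and 3 were at 0 in at least 1 library (HBM, SLC4A1 and AHSP), with sums of 1.55 to 43.02 CPM in wildtype and 3.42 to 55.7 CPM in deletion. Fibroblasts of the meninges and vessel walls gave 122 to 315 CPM in wildtype and 116 to 361 CPM in deletion summed over 12 of 12 markers, of which DPT was at 0 in some libraries. In each group the top of that range was wildtype replicate 1 or deletion replicate 2. The fibroblast collagens COL1A1 and COL3A1 stood at 111, 20.5 and 52.3 against 48.2, 102 and 17.3 CPM and 23.6, 7.16 and 16.8 against 17.4, 37.2 and 5.81 CPM. Wildtype replicate 1 and deletion replicate 2 were the 2 highest libraries in 5 of 5 contractile genes and 9 of 11 tested fibroblast markers. The same held in 3 of 21 endothelial genes and in 6.15% of all genes tested. With wildtype replicate 2 lowest as well, the counts were 5 of 5, 3 of 11 and 3 of 21, beside 2.05% of all genes. The fibroblast sum was lowest in deletion replicate 3. Perivascular macrophage markers, 6 of 6 found and none at 0, summed to 13.4 to 21.95 CPM in wildtype and 16.6 to 30.2 CPM in deletion, again highest in deletion replicate 2. The part of red blood cells, fibroblasts and macrophages in the contractile values was not tested.

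**Figure D4:**
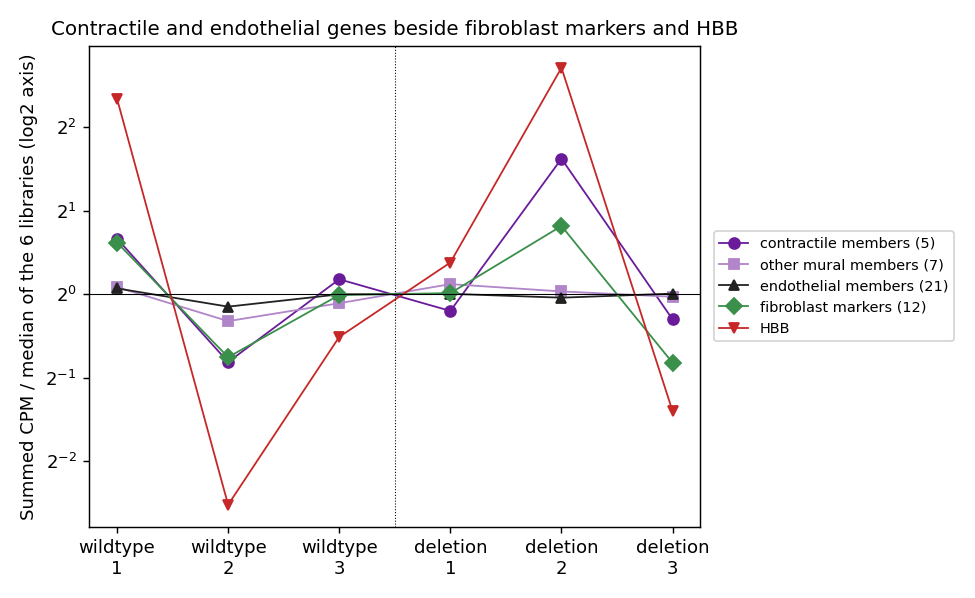
Summed CPM per library for the contractile, other mural and endothelial genes, for fibroblast markers and for HBB, each divided by its own median over the 6 libraries, on a log2 axis (lines join the libraries of a set only to guide the eye). Contractile genes, fibroblast markers and HBB peak in wildtype replicate 1 and deletion replicate 2, HBB at 54.3 CPM in the latter, while the endothelial and other mural sums stay near 1.

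Sums of other cell types did not share the order of the contractile genes. Those of astrocytes and neurons were also highest in deletion replicate 2, though. Of single markers, 4 of 10 for astrocytes and 2 of 10 for neurons were highest there, beside 17.8% of all genes. Their median log2 ratios to the wildtype mean in that library were 0.15 and -0.044. The microglial sum was highest in wildtype replicate 2, followed by deletion replicate 2. Oligodendrocyte markers, 8 of 10 found, summed to 10362, 20798 and 10199 CPM in the wildtype animals against 23782, 9496 and 18744 CPM in the deletion animals. They were highest in deletion replicate 1, the highest library for 17.5% of all genes, and lowest in deletion replicate 2. Microglial markers, 9 of 10 found, gave 144 to 275 CPM in wildtype and 99.2 to 243 CPM in deletion, astrocyte markers, 10 of 10, 5042 to 5757 CPM in wildtype and 5741 to 6663 CPM in deletion, and neuronal markers, 10 of 10, 7128 to 8126 CPM in wildtype and 6755 to 8812 CPM in deletion. None of these 4 lists had a marker at 0. Choroid plexus markers, 7 of 8 found, summed to 28.4 to 38.4 CPM in wildtype and 39.2 to 57.4 CPM in deletion. PRLR and OTX2 were at 0 in some libraries. Each deletion sum was above each wildtype sum, though 38.4 and 39.2 CPM were close. Of the 5 tested markers 1 was apart upward, beside 6.88% of all genes tested. The part of these cells in the vessel values was not tested.

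Further smooth muscle genes followed the contractile members in part. Of 10 such genes 6 were highest in deletion replicate 2 and 5 lowest in wildtype replicate 2, beside 17.8% and 20.7% of all genes. SMTN was lowest in deletion replicate 2. DES, the muscle intermediate filament desmin, measured 14.9, 8.12 and 11.6 against 10.2, 30.4 and 10.97 CPM, highest in deletion replicate 2. TPM2, a tropomyosin, gave 19.4, 11.1 and 25.7 against 20.7, 35.9 and 22.3 CPM, with wildtype replicate 1 above wildtype replicate 2 only. KCNMB1, a potassium channel subunit of smooth muscle, was low, at 1.73, 0.241 and 0.702 against 1.56, 3.303 and 0.469 CPM. In contrast LMOD1, an actin nucleator of smooth muscle, was highest in wildtype replicate 1 at 9.94, 4.75 and 6.97 against 3.82, 6.97 and 3.47 CPM, and SYNPO2 had 53.1, 37.5 and 51.6 against 40.9, 39.8 and 42.04 CPM. Among all 25 listed further mural genes 24 were found and 22 tested, 0 passed, 14 were positive and the median log2 fold change was 0.15, or -0.0067 without deletion replicate 2. ACTA2 is a close relative of the gut-type smooth muscle actin ACTG2. Their sequences were not compared here, and how the authors counted any shared reads is not given. ACTG2 held 107 reads in deletion replicate 2 and 4 to 44 in the others, beside 1665 ACTA2 reads in deletion replicate 2. The part of shared reads in the ACTA2 level was not tested, so that level is uncertain.

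Among the other mural genes the lowest p belonged to GJA4, the connexin of arterial endothelium and mural cells. GJA4 measured 2.36, 2.03 and 2.56 CPM in the wildtype animals against 3.96, 4.31 and 3.66 CPM in the deletion animals. Each deletion library was above each wildtype library (log2 fold change 0.78, SE 0.21, edgeR adjusted p = 0.683, unadjusted p = 0.00589). KCNJ8, the channel pore that pairs with ABCC9, was also apart, at 2.95, 3.097 and 2.76 against 4.56, 4.36 and 3.37 CPM (log2 fold change 0.48, SE 0.21, edgeR adjusted p = 0.683). Of the 22 tested genes in that list 2 were apart upward and 0 downward, beside 6.88% and 7% of all genes. NDUFA4L2, a pericyte gene of a name close to the unmatched NDUFA4L2X, measured 8.17, 6.99 and 6.12 against 6.51, 6.29 and 7.08 CPM.

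Further endothelial genes gave 0 passing of 22 tested out of 25, with 11 positive, 11 negative and a median log2 fold change of 0.035. Without deletion replicate 2 that median was -0.045 and 13 of 22 were negative, beside 50.3% of all genes. The 2 of lowest p were CD93, a receptor of angiogenic endothelium, and ITM2A, a membrane protein of brain endothelium. CD93 measured 15.3, 14.3 and 17.6 against 22.1, 16.3 and 21.7 CPM and overlapped, whereas ITM2A, at 28.2, 20.96 and 27.2 against 30.7, 33.3 and 29.95 CPM, did not (log2 fold change 0.30, SE 0.13, edgeR adjusted p = 0.683). Of the 22 tested genes 1 was apart upward and 0 downward, beside 6.88% and 7% of all genes. CD34 and NOS3, an endothelial sialomucin and the endothelial nitric oxide synthase, stood at 19.3, 14.3 and 19.6 against 16.4, 18.3 and 18.1 CPM and 24.7, 12.4 and 18.1 against 17.4, 19.1 and 15.2 CPM. NOS3 was highest in wildtype replicate 1 and lowest in wildtype replicate 2, like VWF and RAMP2. Of the leak-associated gene PLVAP, which mature barrier endothelium keeps low, libraries held 9.23, 14.5 and 7.98 against 5.55, 13.7 and 10.6 CPM, with overlapping groups.

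Signals between endothelium and its neighbours had 14 of 22 tested genes negative, a median of -0.082 and 0 passing. Without deletion replicate 2 there were 15 of 22 negative and a median of -0.16. PDGFB, the ligand of PDGFRB, measured 29.2, 25.5 and 35.8 CPM in the wildtype animals against 20.98, 19.2 and 23.2 CPM in the deletion animals. Every deletion library was below every wildtype library (log2 fold change -0.51, SE 0.15, edgeR adjusted p = 0.683, unadjusted p = 0.00816), while PDGFRB itself overlapped. Which cells of the cortex made PDGFB was not tested. S1PR1, a sphingosine phosphate receptor that tightens endothelial junctions and is also made by astrocytes, was apart in the same direction, at 95.3, 86.5 and 92.9 against 77.3, 83.04 and 76.1 CPM (log2 fold change -0.22, SE 0.087, edgeR adjusted p = 0.683). These 2 of 22 were the downward separations in that list, beside 7% of all genes. ANGPT1, the ligand that activates TEK, had 7.96, 7.19 and 8.38 against 8.102, 11.1 and 11.4 CPM, and VEGFA, the ligand of KDR and FLT1, 19.9, 18.8 and 22.3 against 24.7, 21.1 and 25.1 CPM. Both overlapped between groups. The arterial Notch genes DLL4 and HEY2, at 8.26, 6.99 and 6.67 against 5.02, 10.3 and 6.98 CPM and 5.48, 4.405 and 5.77 against 4.74, 6.74 and 4.12 CPM, had log2 fold changes of 0.019 and -0.0021, beside 0.44 for SOX17 and 0.78 for GJA4.

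Barrier genes and their Wnt pathway had 10 of 22 positive values, a median of -0.015 and 0 passing. Without deletion replicate 2 the median was 0.0090 and 11 of 22 were negative. WNT7A, which neural cells send to induce the barrier, measured 4.85, 4.16 and 5.72 CPM in the wildtype animals against 6.83, 6.01 and 7.03 CPM in the deletion animals, with the groups apart (log2 fold change 0.44, SE 0.18, edgeR adjusted p = 0.683). Its receptor-side partners RECK and ADGRA2 stood at 7.33, 5.64 and 6.17 against 7.64, 5.92 and 5.77 CPM and 23.7, 16.7 and 19.5 against 20.1, 18.4 and 16.97 CPM and overlapped. INSR, the insulin receptor, which other cells also make, had 11.8, 12.2 and 8.53 against 10.5, 5.09 and 6.05 CPM (log2 fold change -0.58). SLC16A1, the monocarboxylate transporter, was apart upward by a small step, at 42.6, 45.8 and 48.1 against 49.2, 49.2 and 52.9 CPM (log2 fold change 0.15). WNT7A and SLC16A1 were the 2 of 22 genes apart upward and 0 were apart downward, beside 6.88% and 7% of all genes. The tight junction genes OCLN and TJP1 held 19.1, 18.7 and 19.6 against 19.3, 16.8 and 15.7 CPM and 74.9, 87.00 and 73.3 against 91.2, 61.8 and 70.9 CPM.

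Vessel basement membrane genes had 8 of 13 positive values, a median of 0.017 and 0 passing. Without deletion replicate 2 the median was 0.089 and 5 of 13 were negative. LAMB1, a laminin chain, measured 69.02, 65.2 and 79.8 CPM in the wildtype animals against 56.7, 58.5 and 59.1 CPM in the deletion animals. It was below wildtype in all deletion libraries (log2 fold change -0.30, SE 0.10, edgeR adjusted p = 0.683), and LAMB2, the related chain, stood at 48.3, 35.9 and 40.99 against 51.5, 48.8 and 43.5 CPM. LAMB1 was the 1 of 13 genes apart downward and 0 were apart upward, beside 7% and 6.88% of all genes. The main basement membrane collagens COL4A1 and COL4A2 overlapped, at 37.4, 24.6 and 33.2 against 31.1, 32.3 and 31.3 CPM and 113, 90.02 and 118 against 111, 109 and 105 CPM. Like the members, these lists were drawn up with results of these data known.

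**Figure D5:**
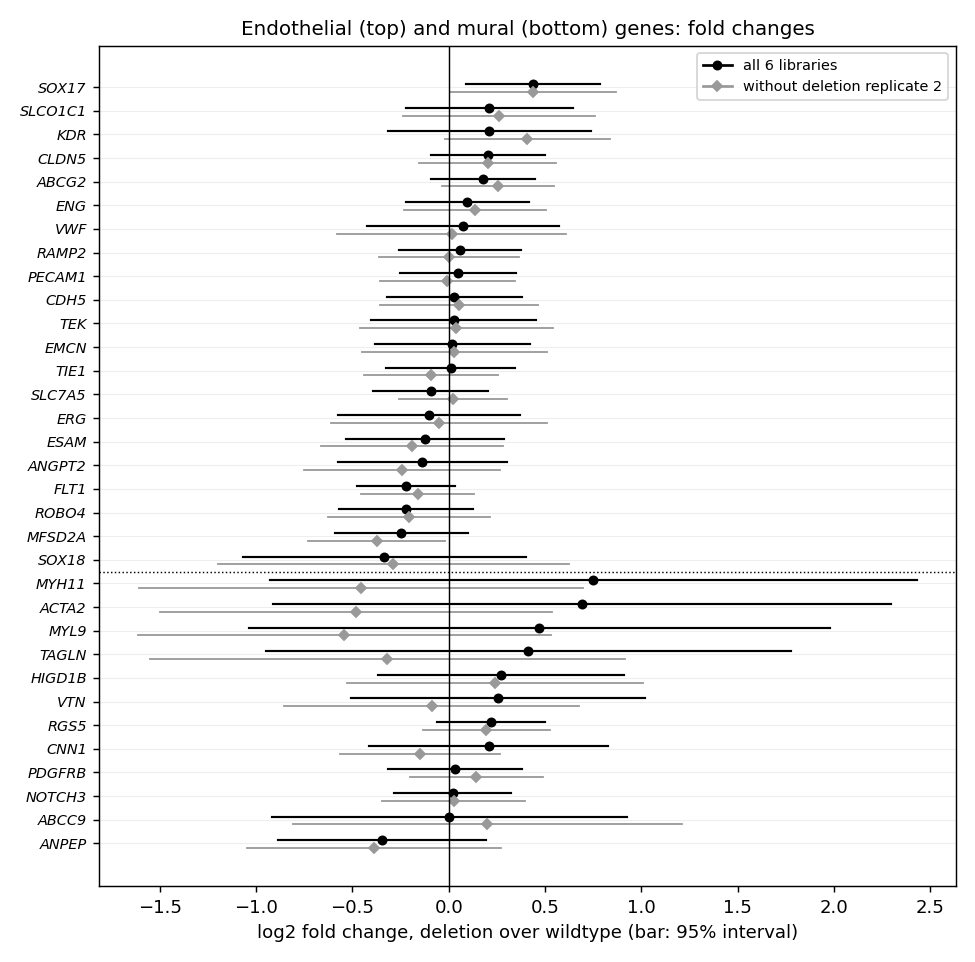
Log2 fold change of deletion over wildtype with its 95% interval for the 21 endothelial genes (above the dotted line) and the 12 mural genes, from all 6 libraries (black) and without deletion replicate 2 (grey). SOX17 is the one black interval clear of 0, and MYH11, ACTA2, MYL9, TAGLN and CNN1 cross from positive to negative when that library is left out.

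In the authors' deposited table no vessel gene has an adjusted p under 0.05 either, where 0.159% of its genes do. The largest fold changes there are 1.69 for MYH11 and 1.62 for ACTA2 in the authors' deposited table, with unadjusted p of 0.0871 and 0.11. For SOX17 the authors' deposited table gives a fold change of 1.36 and an unadjusted p of 0.0552, and for ANPEP -1.26 and 0.325. These are the same 6 libraries, so they add no replicate.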

How the data were processed

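Cortex of 6 pigs was sequenced as stranded polyadenylated RNA, in pairs of 150 bases, per the labels' protocols, from RNA with an integrity number above 6.1. Not given in the sources used here are the aligner, genome build, annotation and whether counting used strand. Per the file headers the authors deposited exon read counts, which were tested as deposited with blanks read as 0, and TPM, used for levels between genes. The CPM score the authors deposited uses a scaling of their own and was not used. The authors' deposited table holds a signed fold change score and p-values from a test not stated; its 6 columns of group summaries were not used.

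Members were matched by the files' own gene names, and other lists also through the table of gene names. Members and lists were chosen with earlier results of these data known. Genes were filtered with filterByExpr, scaled with TMM and tested with edgeR 4.0.16 (quasi-likelihood, robust, no covariate; R 4.3.3) over all 14458 genes kept, with Benjamini-Hochberg adjustment. Standard errors are the size of the log2 fold change divided by the root of its F statistic. The fit was tested on simulated data. Alternatives were DESeq2 1.42.0 and its size factors, limma 3.58.1 voom with sample weights, other filters, a covariate for the prefix of the animal number, a table without mitochondrial and haemoglobin genes, and each library left out. Values in every library are given for the 5 members of lowest p and the 3 of highest TPM in each class, the contractile genes and the 2 genes of lowest p in each further list. The others were added after their values were seen. Groups come from the genotype label, and replicates are separate animals numbered in accession order.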

Additional observations from a re-analysis of the deposited data

How the results depend on the processing

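Counts of passing members stayed at 0 in both classes under each alternative run, and the lowest adjusted p of any member in any of them was 0.229. Over all genes 1 passed with edgeR, 19 with DESeq2, 2 without a filter on low counts and 1 to 2 with 1 library left out, and the cause was not tested. With 1 library left out the endothelial median log2 fold change ranged from -0.071 to 0.092 and the mural one from -0.12 to 0.40, its lowest value being the one without deletion replicate 2. Leaving the contractile genes out, an alternative chosen after seeing the data, gave a mural median of 0.033. Of 429 values of single members under 13 alternatives, 41 changed sign, in 20 genes that had not passed. With limma-voom these were PECAM1 (-0.0059), CDH5 (-0.038), TEK (-0.094), TIE1 (-0.050), VWF (-0.016), EMCN (-0.090), PDGFRB (-0.012), ABCC9 (-0.31), NOTCH3 (-0.054) and MYL9 (-0.027). ABCC9 also changed sign with DESeq2 (-0.0049) and with the animal-number prefix (-0.059). With 1 library left out, log2 fold changes ranged over -0.059 to 0.11 for PECAM1, -0.12 to 0.14 for CDH5, -0.0093 to 0.41 for KDR, -0.13 to 0.13 for TEK, -0.10 to 0.12 for TIE1, -0.036 to 0.18 for ENG, -0.13 to 0.35 for VWF, -0.25 to 0.093 for ESAM, -0.10 to 0.12 for EMCN, -0.20 to 0.024 for SLC7A5, -0.071 to 0.17 for RAMP2, -0.097 to 0.14 for PDGFRB, -0.43 to 0.20 for ABCC9, -0.077 to 0.14 for NOTCH3, -0.48 to 1.12 for ACTA2, -0.32 to 0.93 for TAGLN, -0.46 to 1.13 for MYH11, -0.54 to 0.85 for MYL9, -0.15 to 0.40 for CNN1 and -0.089 to 0.47 for VTN. No scaling alternative changed a sign. The planned fit on unique exon reads was not run, as no column of them was at hand. No paired analysis was run, as the replicate numbers follow accession order and the labels name no pairs. The animal-number prefix was 14 for replicate 1 of both groups and 15 for the other libraries, and the labels do not explain it. ABCC9, HIGD1B and VTN, with the fewest reads, are limited most by counting error.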
